A study of Mus musculus with 2 samples.

Results

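The cells described here were mature, Ly49-positive natural killer (NK) cells, picked from 2 single-cell RNA libraries of mouse immune cells by the genes they carried. A kept cell had at least 200 genes, at most 20% of its unique molecular identifiers (UMIs, each counting 1 captured RNA molecule) from mitochondrial genes and at most 10% from haemoglobin genes. A member had at least 1 UMI of the NK receptor genes Ncr1, Klre1 or Klrb1c, at least 1 UMI of the Ly49 genes Klra4, Klra8 or Klra9, and none of the T-cell genes Cd3d, Cd3e, Cd3g and Trac, of the B-cell gene Cd79a or of the macrophage gene Csf1r. The rule took 844 of 27478 kept cells, of which 528 came from the KO library and 316 from the WT library. The measured values of those 12 genes chose the members, so their levels are described and support nothing.

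KO stands for Alb-Cre Bicd2fl/fl mice, in which Cre driven by the albumin promoter deletes Bicd2, and WT for Alb-WT Bicd2fl/fl mice, which carry the same floxed alleles without Cre. Bicd2 encodes an adaptor between cargo and the dynein motor, and the albumin promoter is active in hepatocytes, so the NK cells were not the cells targeted for deletion. Both groups were immunised with S-100, the supernatant of homogenised mouse liver emulsified with complete Freund's adjuvant, at 2.5 mg weekly for 3 weeks into the peritoneum, a model of autoimmune hepatitis (AIH). The protocols describe immune cells of the liver, separated with Percoll and a red-cell lysis step, live-sorted and pooled, whereas the sample labels name peritoneal immune cells and the treatment HFD, and the labels do not settle which applies. Strain, age, sex and the number of mice behind each library are not given in the sources used here. Each genotype was 1 library, so no difference below has a replicate check, no test across samples exists, and every interval is a 95% interval of counting error only.

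NK cells are innate lymphocytes that kill infected or stressed cells with perforin and granzymes and release chemokines and interferon-gamma. Mouse NK cells read MHC class I through Ly49 receptors, which are switched on in mixed combinations as the cells develop, and they mature from CD27-high to CD11b-high cells while Zeb2, T-bet and Blimp-1 act in sequence. The liver also holds tissue-resident ILC1, which share Ncr1 and Klrb1c with NK cells but usually carry CD49a, encoded by Itga1, and few Ly49 receptors.

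The KO library held 63869430 UMIs over 27033 barcodes and the WT library 81159013 UMIs over 22197 barcodes, of which 10812 KO and 16666 WT barcodes were kept. The median depth was 1522.5 UMIs in KO members (quartiles 1072 to 2055.8) and 2723.5 UMIs in WT members (quartiles 1401.8 to 4832.2). Shares of cells with a UMI are therefore given below after every member was thinned to 1000 UMIs, unless they are said to be without thinning. The thinning left 419 KO and 271 WT members. Bicd2 itself had 25 UMIs in KO members and 41 UMIs in WT members, a ratio of 0.713 (0.416 to 1.20). Haemoglobin took 2.24% of KO member UMIs and 0.766% of WT member UMIs. The 8 neutrophil markers summed to 2119 CPM (UMIs of a gene per 1000000 UMIs of the members) in KO members and 19600 CPM in WT members, and B cells of the same libraries, which should lack these transcripts, had a UMI of S100a8 in 17.6% of KO and 78.4% of WT cells at equal depth. S100a8 thus differed between the libraries in a cell type other than the members too, and neutrophil, monocyte and haemoglobin genes are not read as NK cell genes below.

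The NK label was checked on markers outside the rule. Gzma, Prf1, Adamts14, Eomes, Tbx21, Nkg7, Klrk1, Klrd1, Itga2, Tyrobp and Cma1 were detected in both libraries, and none passed 2-fold between them. Klrd1, encoding the CD94 receptor chain, stood at 629 CPM in KO members and 729 CPM in WT members. The whole list of 14 NK markers summed to 16374 CPM in KO members and 14111 CPM in WT members, but it also holds Ncr1, Klra4 and Klra8, which chose the members, so that sum is a description. The 9 further T-cell markers summed to 439 CPM in KO members and 557 CPM in WT members, the B-cell markers to 120 CPM in KO and 148 CPM in WT, and the monocyte and macrophage markers to 225 CPM in KO and 692 CPM in WT. At equal depth Trbc1, a T-cell receptor gene, had a UMI in 22.4% of KO and 25.8% of WT members, against 1.34% of KO and 2.32% of WT B cells. With Trbc1, Trbc2, Trdc, Cd4, Cd8a and Cd8b1 also held at 0, 303 of 528 KO and 128 of 316 WT members remained. Adamts14, a metalloproteinase gene among the markers, stood at 455 CPM in KO members and 345 CPM in WT members. The word mature describes the WT members less well, because 43.4% of them had no UMI of Gzma, the granzyme A gene, as described further on. Of all kept cells with an NK and a Ly49 gene, 176 of 738 in the KO library and 478 of 830 in the WT library carried a T-cell gene of the rule and were left out for it.

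Members made up a larger share of the KO library. They were 4.88% of kept KO cells (4.48 to 5.31) and 1.90% of kept WT cells (1.69 to 2.11), a 2.58-fold difference (2.25 to 2.95). The size of this difference also depends on barring T-cell genes. Before that, 738 of 10812 kept KO and 830 of 16666 kept WT cells had an NK and a Ly49 gene, still a larger share in the KO library. Of these cells 176 in KO and 478 in WT carried a T-cell gene. Among all cells with an NK receptor gene and no T, B or macrophage gene, Ly49-positive cells were 528 of 1048 in the KO library, or 50.4% (47.3 to 53.5), and 316 of 967 in the WT library, or 32.7% (29.7 to 35.7). After thinning to 1000 UMIs before the rule was applied, that proportion was 41.7% (38.5 to 45.0) in the KO library and 30.3% (27.4 to 33.4) in the WT library. The share of kept cells depends on the haemoglobin limit: at a limit of 1% only 10 of 1172 KO cells were members, or 0.853%, against 205 of 11661 WT cells, or 1.76%. Red-cell lysis and the live sort also act on the denominator, and their part in the shares was not tested.

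**Figure D1:**
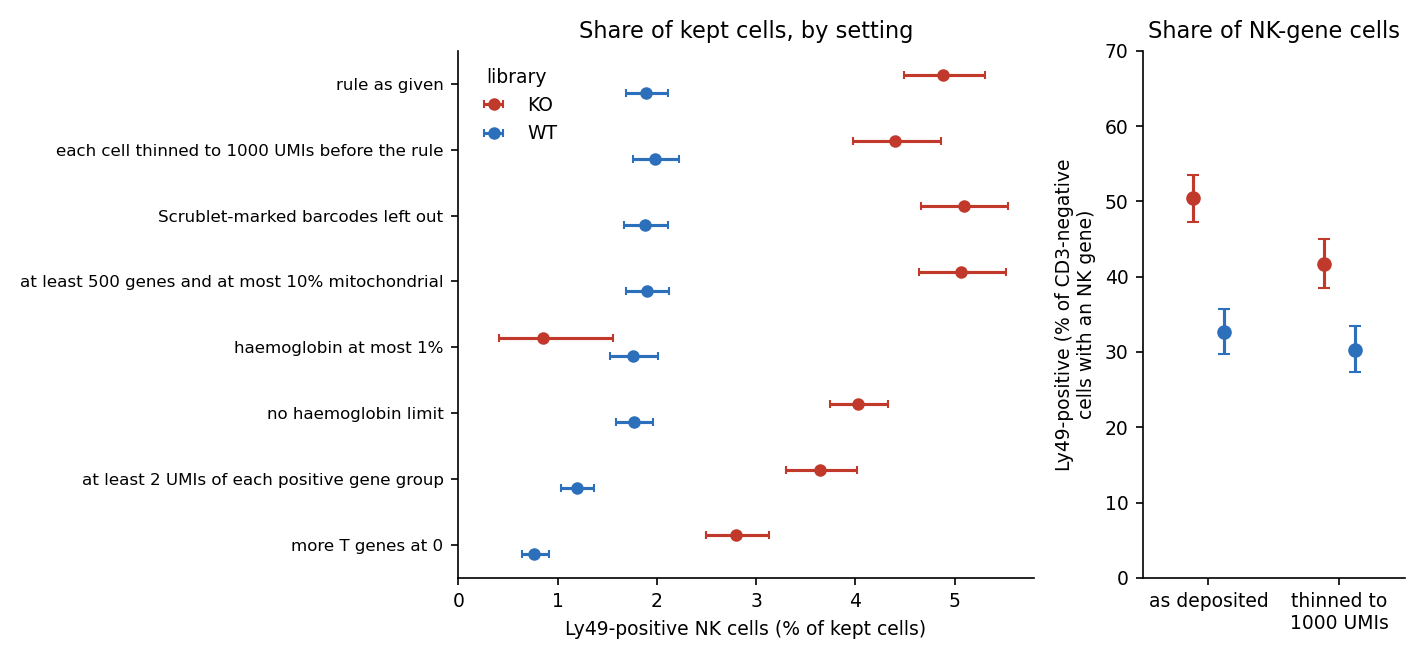
Share of Ly49-positive NK cells in the KO and WT libraries with exact 95% intervals of counting error, as a percentage of kept cells under 8 ways of choosing cells (left) and of CD3-negative cells with an NK receptor gene (right). KO points lie right of WT points at 4.88% against 1.90% under the rule as given and under 6 other settings, and left of them at 0.853% against 1.76% where haemoglobin was held to 1%.

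The 3 Ly49 genes that chose the members all had a higher CPM in KO members, Klra9 by the most. Klra8, which encodes the activating receptor Ly49H, stood at 1057 CPM in KO members and 798 CPM in WT members, and Klra4, encoding the activating receptor Ly49D, at 952 CPM in KO and 668 CPM in WT. Klra9, encoding Ly49I, stood at 503 CPM in KO members and 273 CPM in WT members, and at equal depth 39.1% of KO and 23.6% of WT members had a UMI of it. At the same depth Klra8 had a UMI in 48.9% of KO and 45.4% of WT members and Klra4 in 43.9% of KO and 40.6% of WT members, with overlapping intervals. Without thinning both were more frequent in WT members, Klra8 in 59.7% of KO and 65.2% of WT members and Klra4 in 50.8% of KO and 58.5% of WT members. The part of depth in their CPM was not tested. Klra genes are near-identical copies in one cluster, so reads can be split between them and the level of any single Ly49 gene is uncertain. Among the 7 measured Ly49 genes outside the rule none passed 2-fold and the median log2 ratio was 0.00. At equal depth Klra7 (Ly49G) had a UMI in 27.9% of KO and 24.4% of WT members, Klra3 (Ly49C) in 14.8% of KO and 12.9% of WT members, and Klra1 (Ly49A) in 5.49% of KO and 8.49% of WT members. The number of the 10 Ly49 genes seen per member at 1000 UMIs averaged 1.87 in KO members and 1.64 in WT members, and 6.68% of KO and 14.02% of WT members had lost every Ly49 UMI by the thinning.

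Members also differed among themselves by which Ly49 gene they carried. Without thinning, Klra9 alone was found in 18.0% of KO and 11.7% of WT members, Klra8 alone in 17.6% of KO and 21.5% of WT members, Klra4 alone in 14.2% of KO and 16.8% of WT members, and at least 2 of the 3 genes in 265 KO members and 158 WT members. These subsets differed in depth. WT members with Klra4 alone had a median of 1635 UMIs and those with at least 2 genes 3423.5 UMIs, against 1356 and 1579 UMIs in KO. The shares are thus not at equal depth, and the part of depth in them was not tested. Members with Klra9 alone had the highest Klrb1b of these 4 subsets, the gene of the inhibitory receptor NKR-P1B, at 469 CPM in KO and 229 CPM in WT. Members with Klra8 alone had it at 250 CPM in KO and at a close 220 CPM in WT. Itga1 was also highest in members with Klra9 alone, at 145 CPM in KO and 394 CPM in WT. Members with at least 2 of the 3 genes had it at 10.5 CPM in KO and 152 CPM in WT. Prf1 was lower in KO members with Klra8 alone and Klra9 alone, at 688 and 689 CPM, than in KO members with at least 2 genes, at 951 CPM. In WT members Prf1 was 725, 660 and 628 CPM in those subsets, so the KO order was not seen there.

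The libraries also differed in Gzma, the gene of the most abundant granzyme of these cells. Without thinning, only 38 of 528 KO members had no Gzma UMI, or 7.20% (5.14 to 9.74), against 137 of 316 WT members, or 43.4% (37.8 to 49.0). The Gzma-free members had a median of 1151 UMIs in KO and 2714 UMIs in WT, so those of the WT library were not shallow. At equal depth 92.6% of KO members (89.7 to 94.9) and 52.0% of WT members (45.9 to 58.1) had a Gzma UMI, while B cells had one in 1.24% of KO and 2.50% of WT cells. The split by Gzma was chosen after its values were seen.

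**Figure D2:**
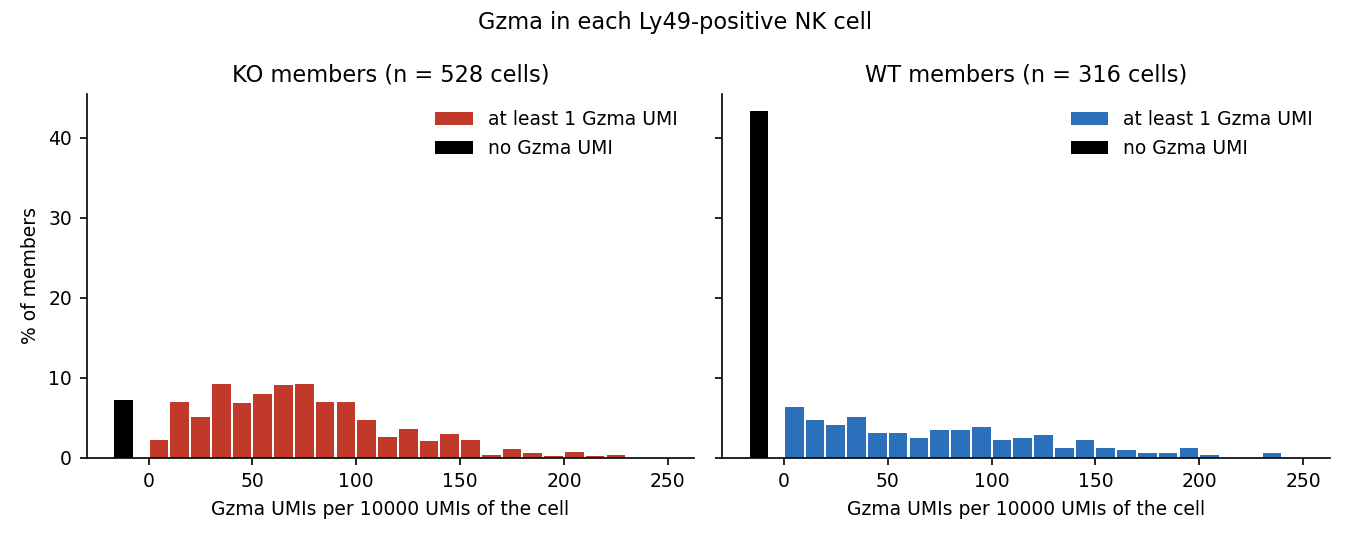
Gzma UMIs per 10000 UMIs of each cell in KO members (left, 528 cells) and WT members (right, 316 cells), as a percentage of the members of each library, with the black bar for cells without any Gzma UMI. The black bar holds 7.20% of KO members and 43.4% of WT members.

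In the WT library the Gzma-free members carried other genes as well. Perforin (Prf1) was at 201 CPM in Gzma-free and 1056 CPM in Gzma-positive WT members, granzyme B (Gzmb) at 285 CPM without and 1212 CPM with Gzma, and the mast cell protease gene Cma1 at 0 CPM without and 189 CPM with Gzma. Klf2, a factor for lymphocyte quiescence and egress, was at 28.7 CPM without and 409 CPM with Gzma, the fractalkine receptor Cx3cr1 at 14.3 CPM without and 173 CPM with Gzma, and Itgam, which encodes CD11b, at 84.0 CPM without and 413 CPM with Gzma. Gzma-free WT members were higher in the chemokine Xcl1 at 1452 against 503 CPM, in the immunoglobulin-family receptor Cd7 at 1120.5 against 576 CPM, in Kit at 203 against 51.6 CPM, in Tcf7 at 262 against 61.3 CPM and in Tox at 1254 against 418 CPM. Tcf7 and Tox encode factors needed early in NK development. Of the ILC1 genes, Cd200r1 was at 119 CPM without and 38.7 CPM with Gzma and Tnfsf10 at 100.4 CPM without and 38.7 CPM with Gzma. Rora was at 51.2 CPM without and 24.2 CPM with Gzma. Other ILC1 genes went the other way, with Tmem176b at 12.3 CPM without and 32.2 CPM with Gzma. Ckb was at 14.3 CPM without and 35.5 CPM with Gzma, and Tmem176a and Podnl1 were slightly lower without Gzma. Some genes were closer between the 2 kinds of WT member: Ncr1 was at 584 CPM without and 687 CPM with Gzma, Klra8 at 862 CPM without and 748 CPM with Gzma, Itga1 at 203 CPM without and 182 CPM with Gzma and Eomes, a factor of conventional NK cells, at 158 CPM without and 137 CPM with Gzma. Neutrophil transcripts moved with the split as well, with S100a8 at 10369 CPM without and 5223 CPM with Gzma and Camp at 2063 CPM without and 661 CPM with Gzma, and their part in these differences was not tested.

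Dscam, a cell adhesion gene best known from neurons, marked part of the Gzma-free cells. It had 37 UMIs in KO members and 500 UMIs in WT members, 11.6-fold lower in KO (8.27 to 16.6). Those UMIs came from 6 KO cells and 97 WT cells, but 31 of the 37 KO UMIs lay in the 2 Gzma-free KO cells that had any, so the KO level rests on those 2 cells. The log2 ratio was −3.50, and it was −5.25 with cells thinned before the rule and −0.33 with haemoglobin at most 1%. Without thinning, 5.26% of the Gzma-free KO members had a Dscam UMI, against 0.816% of the Gzma-positive KO members. Of the Gzma-free WT members 52.6% had one, also without thinning, against 13.97% of the Gzma-positive WT members. The plot of cells with a UMI sets B cells beside all members at equal depth, and there Dscam in B cells lies near 0 in both libraries.

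Over all members, 8755 genes had at least 20 UMIs summed over both libraries and were compared as the log2 ratio, KO over WT, of CPM plus 1. Of these, 4.44% were at least 2-fold higher in KO members and 6.18% at least 2-fold lower, and the median log2 ratio was 0.05. The counts below are read against these shares.

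Late-maturation genes were higher in KO members when all members were taken. Of 11 measured genes 4 were at least 2-fold higher, none lower, and the median log2 ratio was 0.77. Zeb2, which drives terminal maturation, stood at 1731 CPM in KO members and 648 CPM in WT members (log2 ratio 1.42). S1pr5, a receptor for egress from tissues, stood at 97.1 CPM in KO and 37.0 CPM in WT, Prdm1, encoding Blimp-1, at 133 CPM in KO and 43.3 CPM in WT, and Klf2 at 522 CPM in KO and 242 CPM in WT. Other late markers moved little, with Itgam at a log2 ratio of 0.29 and Klrg1, an inhibitory receptor of end-stage NK cells, at 0.11. Cx3cr1 stood at −0.11 and Itgb2, encoding the beta chain that pairs with CD11b, at 0.02. Within Gzma-positive members the list had a median of 0.04 and 2 genes at least 2-fold higher, and there the background was 5.40% higher and 5.83% lower with a median of 0.08. Zeb2 stood at 1832 CPM in Gzma-positive KO members and 880 CPM in Gzma-positive WT members. The median was also −0.70 where haemoglobin was held to 1%, a setting that left 10 KO members, and 0.39 without the members that carried ILC1 genes.

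Early-maturation genes were lower in KO members, and here the difference was also present within Gzma-positive members. Of 11 measured genes 7 were at least 2-fold lower, all 11 had a ratio below 0 and the median was −1.22, and within Gzma-positive members 6 were at least 2-fold lower with a median of −1.14. Among Gzma-free members, which were 38 cells in KO and 137 cells in WT, the median was −0.39. Xcl1, a chemokine that draws cross-presenting dendritic cells, stood at 87.6 CPM in KO members and 921 CPM in WT members, 10.5-fold lower in KO (8.41 to 13.3). Cd7 stood at 129 CPM in KO and 816 CPM in WT, Cd160, an activating receptor, at 38.0 CPM in KO and 203 CPM in WT, the lymphotoxin gene Ltb at 48.5 CPM in KO and 207 CPM in WT, and Kit, the stem cell factor receptor, at 32.7 CPM in KO and 118 CPM in WT. The classical early marker Cd27 was at 36.9 CPM in KO members and 48.7 CPM in WT members and did not pass 2-fold, nor did Il7r. Within Gzma-positive members Xcl1 was at 74.1 CPM in KO and 503 CPM in WT and Cd7 at 99.2 CPM in KO and 576 CPM in WT.

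**Figure D3:**
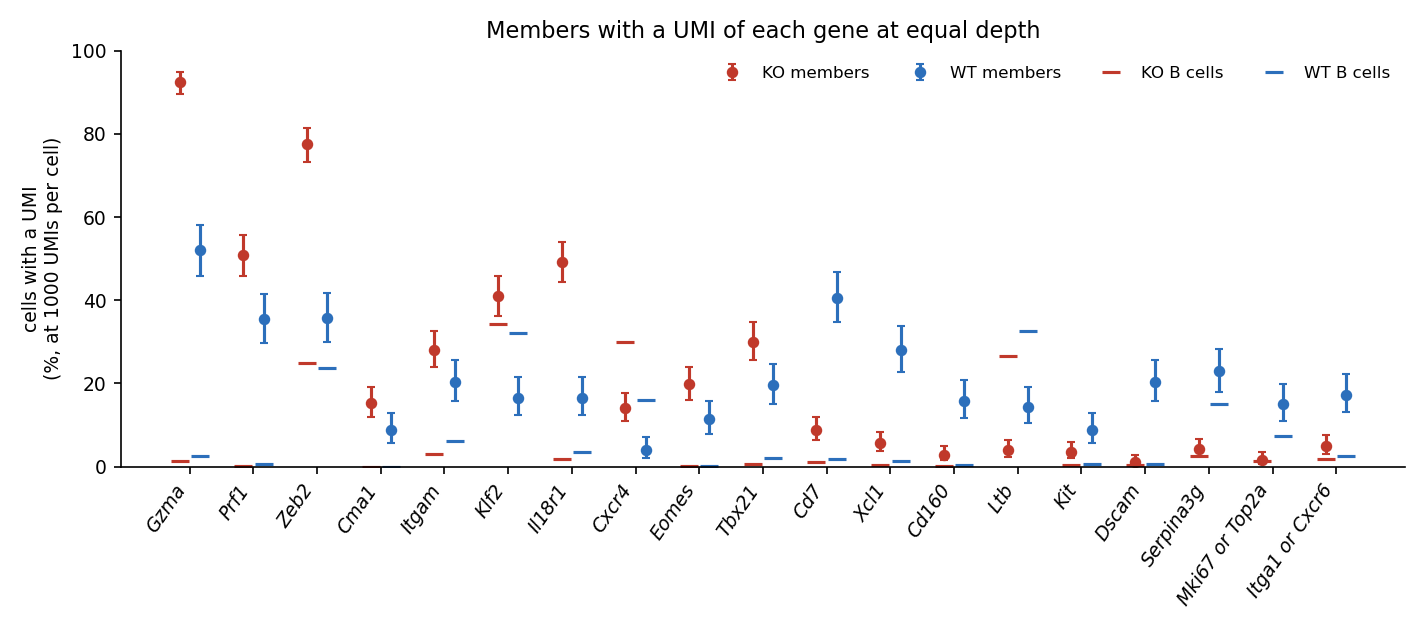
Percentage of members with a UMI of each gene after thinning to 1000 UMIs (419 KO and 271 WT members, exact 95% intervals of counting error), with bars for B cells of the same library. Gzma was seen in 92.6% of KO and 52.0% of WT members and Cd7 in 8.83% of KO and 40.6% of WT members.

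The same order was seen in shares of cells at equal depth. Cd7 had a UMI in 8.83% of KO and 40.6% of WT members, Xcl1 in 5.73% of KO and 28.0% of WT members, and Cd160 in 2.86% of KO and 15.9% of WT members. Zeb2 had one in 77.6% of KO and 35.8% of WT members, against 24.9% of KO and 23.7% of WT B cells. Klf2, Cxcr4 and Ltb are transcribed by B cells themselves, whose shares for them lie near or above those of the members, so for these genes only the CPM are used.

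Of 19 measured cytotoxic genes 2 were at least 2-fold lower in KO members, none higher, and the median log2 ratio was −0.16. Within Gzma-positive members 4 of 19 were at least 2-fold lower, where 5.83% of all genes were, and the median was −0.21. Among Gzma-free members the median was −0.75. Gzma stood at 6314 CPM in KO members and 4581 CPM in WT members (log2 ratio 0.46), Prf1 at 846 CPM in KO and 679 CPM in WT, Gzmb at 542 CPM in KO and 804 CPM in WT, and Nkg7, a granule membrane protein needed for degranulation, at 1642 CPM in KO and 2102 CPM in WT. The shares of cells at equal depth did not follow the lower CPM of Gzmb and Nkg7. Gzmb had a UMI in 35.8% of both KO and WT members, and Nkg7 in 76.6% of KO and 72.7% of WT members. Gzma-positive members alone had Gzma at 6827 CPM in KO and 8187 CPM in WT, Prf1 at 907 CPM in KO and 1056 CPM in WT and Gzmb at 568 CPM in KO and 1212 CPM in WT. The sign for Gzma and Prf1 thus depends on whether Gzma-free cells are counted, since the log2 ratio was −0.26 and −0.22 among Gzma-positive members. For Gzma this follows from the split, which took out the cells without its UMI and more of them in WT, so its ratio there is a description. The list counts and median among Gzma-positive members still hold Gzma. The lower pair was Gzmc, a granzyme of strongly stimulated lymphocytes, with 8 UMIs in 6 KO cells and 101 UMIs in 19 WT cells, and Tnfsf10, encoding the death ligand TRAIL, at 13.7 CPM in KO members and 65.9 CPM in WT members. The log2 ratio of Gzmc was −3.29, and −0.53 without the members that carried ILC1 genes, which ends its 2-fold call.

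Cytokine and chemokine genes were lower in KO members. Of 9 measured genes 5 were at least 2-fold lower, none higher, and the median log2 ratio was −1.69, or −1.59 within Gzma-positive members. Beside Xcl1 and Ltb these were the chemokine genes Ccl3, at 30.6 CPM in KO members and 101 CPM in WT members, and Ccl4, at 92.8 CPM in KO and 523 CPM in WT, and the interferon-gamma gene Ifng, with 7 UMIs in KO members and 34 UMIs in WT members. Ccl5, the most abundant of them, stood at 4663 CPM in KO members and 8175 CPM in WT members (log2 ratio −0.81), and 90.7% of KO and 86.0% of WT members had a UMI of it at equal depth.

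Genes induced by interferon-gamma were lower in KO members too. Of 22 measured genes 13 were at least 2-fold lower, none higher, with a median log2 ratio of −1.29. The 2 chemokine genes without a UMI in KO members, Cxcl9 and Cxcl10, stayed below the median when set to the limit of 3 counts. That setting therefore could not move the median, which stayed at −1.29. Without members that held more than 25 UMIs of the neutrophil genes S100a8 and S100a9 the median was −1.12. Subtracting free RNA by the mean profile of B cells took the median to 0, although that subtraction removed more S100a8 and S100a9 than the members held, and with an estimate from the middle of the B cells the median was −1.26. Igtp, a GTPase of cell-autonomous defence, stood at 11.6 CPM in KO and 61.3 CPM in WT, the guanylate-binding protein gene Gbp2 at 17.9 CPM in KO and 80.3 CPM in WT, Gbp5 at 16.9 CPM in KO and 57.7 CPM in WT, and Serpina3g, a serine protease inhibitor, at 59.1 CPM in KO and 267 CPM in WT. Socs1, the feedback inhibitor of the pathway, stood at 25.3 CPM in KO members and 98.3 CPM in WT members, and Nlrc5, the activator of MHC class I genes, at 146 CPM in KO and 306 CPM in WT. The transcription factor genes Irf1 and Irf8 did not follow, at log2 ratios of −0.10 and 0.11. The Gbp genes are close paralogs and their counts may be split among them. Within Gzma-positive members 9 of 19 measured genes were at least 2-fold lower and the median was −0.96, with Serpina3g at 43.3 CPM in KO and 160 CPM in WT. B cells had a Serpina3g UMI in 2.57% of KO and 15.2% of WT cells at equal depth, against 4.296% of KO and 22.9% of WT members, so the gene also differed between the libraries in another cell type.

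**Figure D4:**
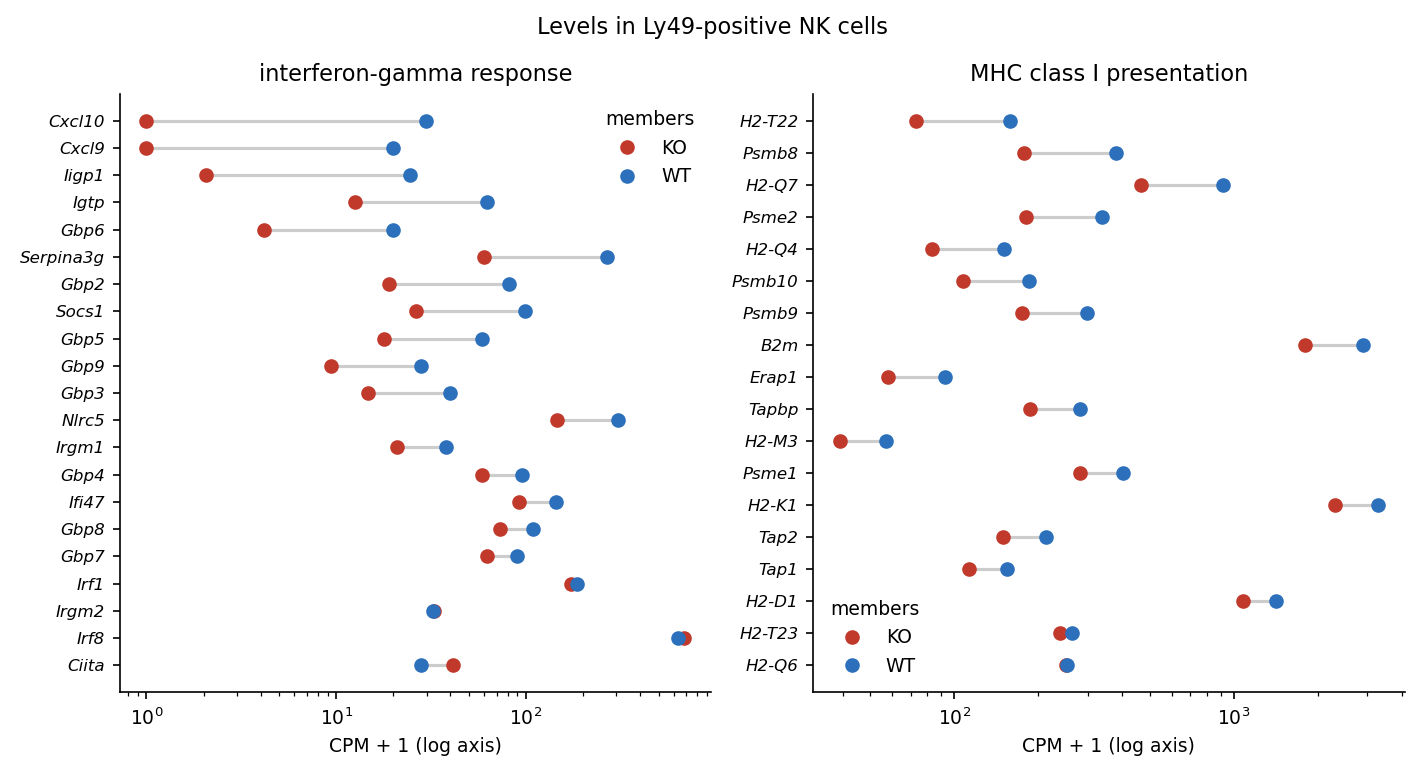
Levels of 21 interferon-gamma response genes (left) and 18 MHC class I presentation genes (right) in KO and WT members, as CPM plus 1 on a log axis, joined by gene. Serpina3g lies at 59.1 CPM in KO and 267 CPM in WT members, while Irf8 and Ciita lie slightly higher in KO members.

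The start regions of 4 of these genes are shown because their lower counts fall together and interferon-gamma factors bind DNA words that can be searched. They were taken from genes at least 2-fold lower in KO members whose window held a match, so a match in each was fixed beforehand. Cxcl10, Socs1 and Gbp3 also qualified and are not printed. The 250 bases before the gene start are printed 5′ to 3′ on the gene's strand, from RefSeq with build GRCm38.p6: Igtp at chr11:58199306-58199555, Gbp5 at chr3:142496684-142496933, Gbp2 at chr3:142620413-142620662 and Serpina3g at chr12:104235897-104236146, all on the plus strand. Capitals mark TTCNNNGAA, the GAS word of interferon-gamma-regulated genes, and GAAANNGAAA, an ISRE-type word of interferon-regulated genes, each searched on both strands, so that the second also appears as TTTCNNTTTC. Matches of the 2 words may overlap.
Igtp: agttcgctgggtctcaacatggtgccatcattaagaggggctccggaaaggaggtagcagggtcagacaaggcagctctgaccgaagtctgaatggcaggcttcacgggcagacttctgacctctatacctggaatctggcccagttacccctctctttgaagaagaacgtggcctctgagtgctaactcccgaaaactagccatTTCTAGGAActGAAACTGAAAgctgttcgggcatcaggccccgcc
Gbp5: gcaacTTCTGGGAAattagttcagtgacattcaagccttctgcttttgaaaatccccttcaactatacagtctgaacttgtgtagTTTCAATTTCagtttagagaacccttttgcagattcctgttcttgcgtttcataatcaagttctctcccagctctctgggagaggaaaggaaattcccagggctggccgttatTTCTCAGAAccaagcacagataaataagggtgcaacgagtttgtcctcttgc
Gbp2: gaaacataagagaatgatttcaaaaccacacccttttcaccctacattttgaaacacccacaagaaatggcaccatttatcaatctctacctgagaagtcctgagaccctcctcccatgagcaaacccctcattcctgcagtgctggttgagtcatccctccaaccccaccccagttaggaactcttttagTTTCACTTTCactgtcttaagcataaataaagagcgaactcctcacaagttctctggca
Serpina3g: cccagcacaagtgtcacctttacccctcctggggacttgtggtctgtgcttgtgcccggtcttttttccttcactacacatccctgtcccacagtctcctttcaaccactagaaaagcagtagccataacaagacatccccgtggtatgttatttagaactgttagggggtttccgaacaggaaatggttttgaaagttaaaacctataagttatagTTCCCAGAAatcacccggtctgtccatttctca
A match describes letters and not a bound site. Igtp held 1 match to each word, Gbp5 held 2 GAS matches and 1 ISRE-type match, Gbp2 held 1 ISRE-type match and Serpina3g held 1 GAS match. Of the 14 measured interferon-gamma genes with a RefSeq window 12 held either word, or 85.7%, against 9.83% of all 27025 windows. The words did not separate genes by their counts, since 7 of 8 listed genes at least 2-fold lower in KO members and 5 of 6 listed genes not past 2-fold held one. None of 9 late-maturation genes and 3 of 9 early-maturation genes with a window held either word.

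MHC class I genes and their processing machinery were lower by smaller amounts but without exception in sign. All 18 measured genes had a log2 ratio below 0, with a median of −0.64, and 2 were at least 2-fold lower. B2m, the shared light chain of class I, stood at 1804 CPM in KO members and 2902 CPM in WT members, and H2-K1, a classical heavy chain, at 2312 CPM in KO and 3280 CPM in WT. The immunoproteasome subunit Psmb8 stood at 176 CPM in KO and 378 CPM in WT and the non-classical heavy chain H2-T22 at 71.7 CPM in KO and 158 CPM in WT. H2-Q6 was the closest to equal with 237 UMIs in KO members and 279 UMIs in WT members (log2 ratio −0.01), and class I heavy chains are near-copies of each other whose counts may be split. Within Gzma-positive members the median was −0.58 and 1 gene was at least 2-fold lower. Type I interferon response genes had 2 of 17 at least 2-fold lower, with a median of −0.52 in all members and −0.20 within Gzma-positive members.

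**Figure D5:**
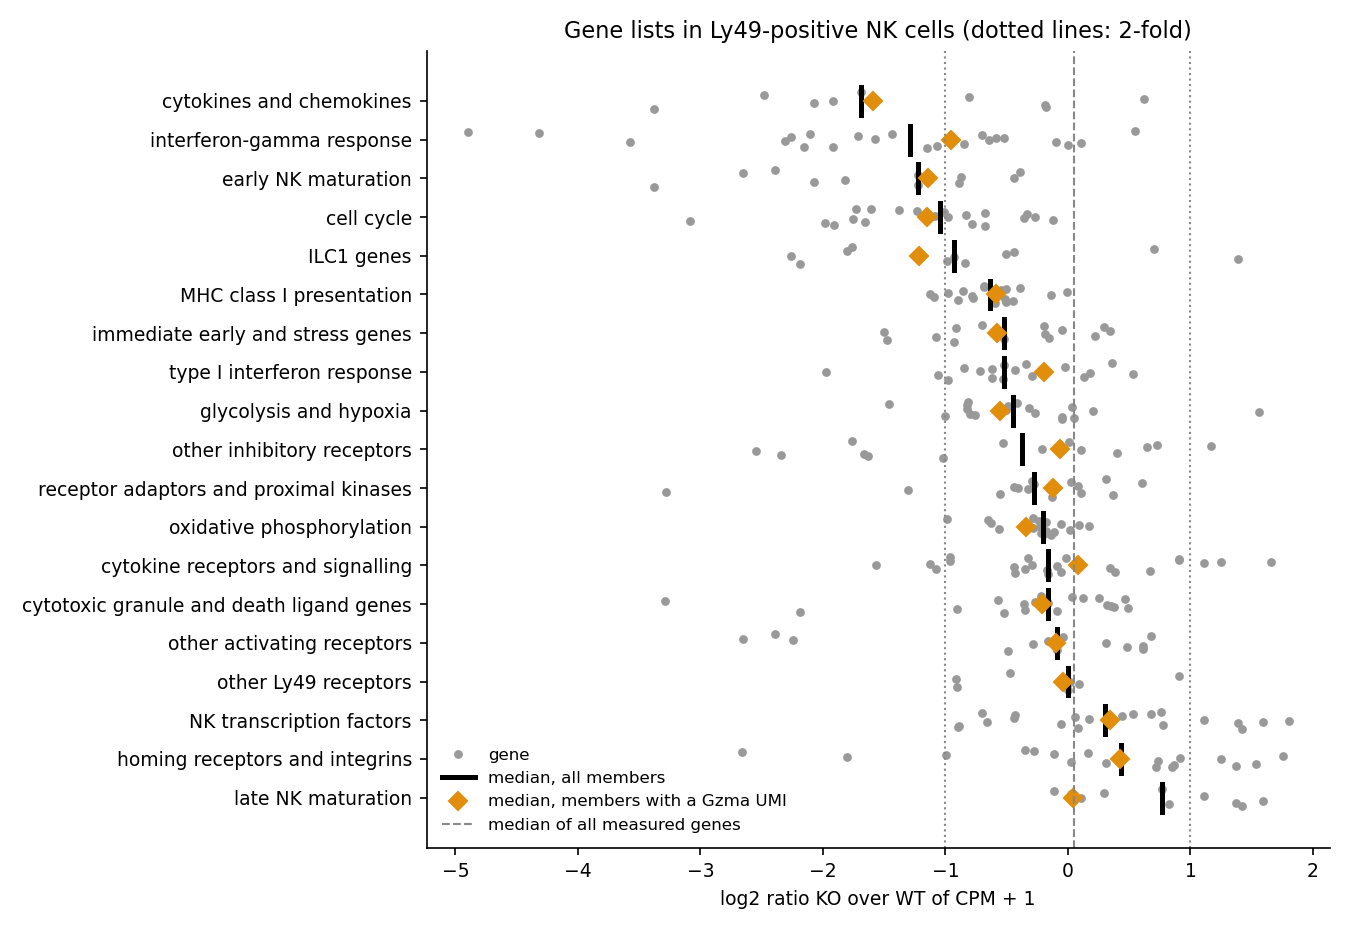
Log2 ratios, KO over WT, of the measured genes of 19 lists (grey points), with each list's median in all members (black bar) and in members with a Gzma UMI (orange diamond). The late-maturation median lies at 0.77 in all members and at 0.04 in Gzma-positive members, while the early-maturation median lies at −1.22 and −1.14.

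Receptors outside the Ly49 family were mixed. Of 14 measured inhibitory receptors 6 were at least 2-fold lower and 1 higher in KO members, with a median of −0.37 that was −0.06 within Gzma-positive members. The higher one was Klrb1b at 272 CPM in KO members and 121 CPM in WT members, seen at equal depth in 23.9% of KO and 6.27% of WT members. The lower ones included the checkpoint receptor Lag3 at 8.44 CPM in KO and 54.1 CPM in WT and Cd200r1, the receptor for CD200, at 21.1 CPM in KO and 74.0 CPM in WT. They also included Lilrb4b, an immunoglobulin-like inhibitory receptor of activated NK and myeloid cells, at 20.0 CPM in KO and 106 CPM in WT. Of 13 activating receptors 3 were at least 2-fold lower, namely Cd7, Cd160 and Crtam, a nectin-like receptor of activated lymphocytes at 31.6 CPM in KO members and 153 CPM in WT members. Klrk1, encoding NKG2D, stood at 1131 CPM in KO and 741 CPM in WT and Klrc2, encoding NKG2C, at 537 CPM in KO and 351 CPM in WT. Of 15 adaptors and kinases 2 were at least 2-fold lower, the paired EAT-2 adaptor genes Sh2d1b1 and Sh2d1b2, with 16 and 1 UMIs in KO members and 48 and 21 UMIs in WT members. Tyrobp, the DAP12 adaptor of Ly49D and Ly49H, had a log2 ratio of −0.55.

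Cytokine receptors included genes well above 2-fold in KO members. Of 23 measured genes 3 were at least 2-fold higher and 3 lower, with a median of −0.16. The lower ones were Il2ra, the high-affinity chain for interleukin-2, with 6 UMIs in KO members and 23 UMIs in WT members, Il21r, the interleukin-21 receptor, with 21 UMIs in KO and 55 UMIs in WT, and the feedback inhibitor Socs3 with 8 UMIs in KO and 21 UMIs in WT. Il18r1 and Il18rap, the 2 chains of the interleukin-18 receptor, stood at 820 and 799 CPM in KO members and at 260 and 370 CPM in WT members. Il12rb2, a chain of the interleukin-12 receptor, stood at 402 CPM in KO members and 169 CPM in WT members, and Ifngr1, the ligand-binding chain of the interferon-gamma receptor, at 677 CPM in KO and 360 CPM in WT. At equal depth Il18r1 had a UMI in 49.2% of KO and 16.6% of WT members, against 1.957% of KO and 3.57% of WT B cells. Within Gzma-positive members Il18r1 was at 851 CPM in KO and 358 CPM in WT and was the 1 listed gene at least 2-fold higher there. Il18rap at 838 CPM in KO and 527 CPM in WT and Il12rb2 at 400.4 CPM in KO and 227 CPM in WT did not pass 2-fold among Gzma-positive members.

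No transcription factor of the list was 2-fold lower. Of 20 measured genes 5 were at least 2-fold higher in KO members and the median was 0.31. Beside Zeb2, Prdm1 and Klf2 these were Lef1, a partner of TCF1, at 229 CPM in KO members and 65.0 CPM in WT members, and Rora, a nuclear receptor linked to ILC1 and ILC2, at 96.0 CPM in KO and 36.1 CPM in WT. Eomes and Tbx21, which encodes T-bet, had log2 ratios of 0.68 and 0.77, whereas Tox had −0.90 and Tcf7 −0.89. Lef1 and Tcf7 thus differed in direction although both encode TCF/LEF factors. Id2, which every innate lymphoid cell needs, was close at 1206 CPM in KO members and 1160 CPM in WT members.

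Homing genes were mixed. Of 19 measured genes 4 were at least 2-fold higher in KO members and 2 lower, with a median of 0.44. The higher ones were the egress receptors S1pr1 and S1pr5, the marrow-retention receptor Cxcr4 at 142 CPM in KO members and 41.5 CPM in WT members, and Itga4, a chain of VLA-4, at 1659 CPM in KO and 696 CPM in WT. The lower ones were Ccr7, a lymph node homing receptor with 3 UMIs in KO members and 28 UMIs in WT members, and Cxcr6, a receptor for liver residence, with 15 UMIs in KO and 64 UMIs in WT. Itga2, encoding the CD49b chain of circulating NK cells, stood at 473 CPM in KO members and 251 CPM in WT members.

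ILC1 genes were lower in KO members, with 4 of 11 measured genes at least 2-fold lower, 1 higher and a median of −0.93. Itga1 stood at 39.0 CPM in KO members and 191 CPM in WT members, and at equal depth 5.01% of KO and 17.3% of WT members had a UMI of Itga1 or Cxcr6. Tnfsf10 and Cd200r1 were the other 2 lower genes and Rora the higher one. Within Gzma-positive members the list's median was −1.21, and Itga1 there had a log2 ratio of −3.25. Among Gzma-free members, 38 in KO and 137 in WT, the median had the opposite sign at 0.54, but over 7 measured genes. Of these 2 were at least 2-fold higher and 1 had a ratio below 0. Among all measured genes there, 8.32% were at least 2-fold higher and 13.7% lower. Itga1 stood at 294 CPM in KO and 203 CPM in WT, from 21 and 99 UMIs, so the opposite sign rests on few counts. With members carrying a UMI of Itga1, Cxcr6, Tnfsf10 or Cd200r1 left out, a choice made after the values were seen, 483 KO and 180 WT members remained, which were 4.47% of kept KO cells and 1.08% of kept WT cells.

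Genes of the cell cycle stood lower in KO members. Of 20 measured genes 11 were at least 2-fold lower, all 20 had a ratio below 0 and the median was −1.05, or −1.15 within Gzma-positive members. Mki67, the proliferation marker Ki-67, stood at 64.3 CPM in KO members and 219 CPM in WT members, Top2a, a topoisomerase of dividing cells, at 67.5 CPM in KO and 270 CPM in WT, and Rrm2, a subunit of ribonucleotide reductase, at 5.27 CPM in KO and 52.3 CPM in WT. At equal depth 1.67% of KO and 15.1% of WT members had a UMI of Mki67 or Top2a, against 1.44% of KO and 7.49% of WT B cells, so the KO share was near the B-cell level. Glycolysis genes had 2 of 18 at least 2-fold lower and 1 higher, with Gapdh at 186 CPM in KO members and 512 CPM in WT members. Oxidative phosphorylation genes had none past 2-fold in either direction and a median of −0.21, and immediate early genes had 3 of 15 lower and a median of −0.52.

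Among the 24 genes named by size of change, Angpt1, encoding the vessel growth factor angiopoietin-1, was the farthest apart of those higher in KO members. It had 142 UMIs in 90 KO members and 8 UMIs in 5 WT members, 20.8-fold higher in KO (10.3 to 49.0), and within Gzma-positive members it stood at 153 CPM in KO and 12.9 CPM in WT. Sorcs2, a sorting receptor, was 8.61-fold higher, Pde2a, a cyclic nucleotide phosphodiesterase, 4.01-fold higher at 354 CPM in KO and 88.4 CPM in WT, Ust, a uronyl sulfotransferase, 3.89-fold higher, and Lef1 3.52-fold higher. Sox5, Maml3, Adamts6 and Tspan32 were also in this group. At equal depth their shares of cells with a UMI were higher in B cells than in members of the same library. B cells thus give no free-RNA level for these genes, and the source of their differences was not tested. Maml3 had a UMI in 6.21% of KO and 0.738% of WT members, against 21.9% of KO and 15.7% of WT B cells. Adamts6 had one in 12.2% of KO and 2.95% of WT members, against 16.3% of KO and 15.9% of WT B cells, and Sox5 in 6.21% of KO and 1.11% of WT members, against 13.9% of KO and 6.95% of WT B cells. Tspan32 had one in 9.79% of KO and 2.21% of WT members, against 11.9% of KO and 11.1% of WT B cells. The others higher in KO members included Galnt10 and Tent5c, at log2 ratios of 1.95 and 1.92. For both genes the share in KO members was above that in KO B cells and the share in WT members below that in WT B cells. Galnt10 had a UMI in 11.2% of KO and 1.48% of WT members, against 8.44% of KO and 6.95% of WT B cells, and Tent5c in 8.11% of KO and 1.48% of WT members, against 6.90% of KO and 1.78% of WT B cells. Tent5c is known from red-cell precursors, and haemoglobin, as given above, was higher in KO members. The part of red-cell RNA in the Tent5c ratio was not tested.

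Sema6d, a semaphorin gene, led the lower group with 0 UMIs in KO members and 59 UMIs in 35 WT members, at least 16.8-fold lower in KO at a limit of 3 counts. Filip1, a filamin-binding protein gene, had 2 UMIs in KO members and 67 UMIs in WT members, 28.6-fold lower (7.63 to 241). Zmat4, a zinc finger gene, stood at 12.7 CPM in KO members and 149 CPM in WT members, and in WT members it was at 285 CPM in Gzma-free and 41.9 CPM in Gzma-positive cells, where Dscam was at 834 CPM without and 150 CPM with Gzma. Ifi211, an interferon-inducible gene, had 4 UMIs in KO members and 62 UMIs in WT members. Spp1, encoding osteopontin, stood at 8.44 CPM in KO and 92.9 CPM in WT. Marcksl1, Chil3, Ifitm6 and Cd63 complete the group with Xcl1, Dscam and Gzmc. For Marcksl1, Chil3, Ifitm6 and Cd63 the shares of cells with a UMI at equal depth were near or below those of B cells. Whether B cells held these transcripts as free RNA or as their own was not tested. The source of the differences in members was not tested either, so these 4 genes are not read as NK cell genes. Chil3 had a UMI in 1.43% of KO and 13.3% of WT members, against 1.65% of KO and 18.5% of WT B cells, and Marcksl1 in 0.716% of KO and 4.06% of WT members, against 2.78% of KO and 6.24% of WT B cells. Ifitm6 had one in 1.67% of KO and 7.75% of WT members, against 0.721% of KO and 10.3% of WT B cells, and Cd63 in 0.477% of KO and 3.32% of WT members, against 0.412% of KO and 3.39% of WT B cells. The genes named as higher had a median span of 175 kb in the GENCODE M21 annotation and those named as lower 14.3 kb. Over all measured genes the median log2 ratio was −0.14 in the shortest of 4 equal groups by span and 0.18 in the longest, and the part of this trend in the named genes was not tested.

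The 2 populations most like the members were CD3-negative cells with an NK gene and no Ly49 gene (520 KO and 651 WT cells) and cells with NK, Ly49 and CD3 genes (156 KO and 429 WT cells). Genes higher in members than in both populations in each library were led by Cma1, at 180 CPM in KO members against 24.9 and 65.5 CPM in those populations and at 106 CPM in WT members against 31.4 and 18.8 CPM. Prf1 followed this pattern at 846 CPM in KO members against 214 and 332 CPM, and at 679 CPM in WT members against 341 and 296 CPM. Klrg1 and Adamts14 did so as well, the second being a marker given for these cells. The members and their 2 relatives came from the same 2 libraries, so only their own KO-over-WT values are set side by side. The interferon-gamma median was −1.29 in members, −0.58 in Ly49-negative cells and −0.67 in CD3-positive cells, and the MHC class I median −0.64 in members, −0.44 in Ly49-negative cells and −0.62 in CD3-positive cells. The early-maturation median was −1.22 in members, −0.19 in Ly49-negative cells and −0.53 in CD3-positive cells, with the late-maturation median at 0.77, −0.25 and 0.39 in that order of populations. The ILC1 median was −0.93 in members, 0.44 in Ly49-negative cells and 0.19 in CD3-positive cells. The cytokine median was −1.69, −1.38 and −1.48 and the cell-cycle median −1.05, −1.91 and −1.26 in the same order of populations. Neutrophil markers summed to 11774 CPM in KO and 84175 CPM in WT Ly49-negative cells, against 2119 CPM in KO and 19600 CPM in WT members, and the part of these transcripts in the medians was not tested.

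At the edge of the rule, 26 KO and 26 WT members had just 1 NK UMI and 1 Ly49 UMI, with Gzma at 2511 CPM in KO and 1209 CPM in WT and S100a8 at 4948 CPM in KO and 32678 CPM in WT. Just outside it, 306 KO and 363 WT cells had at least 2 NK UMIs and no Ly49 UMI, with Gzma at 2570 CPM in KO and 3776 CPM in WT and Itga1 at 434 CPM in KO and 255 CPM in WT. Another 67 KO and 125 WT cells met the rule but for 1 T-cell UMI. The libraries shared 177 barcodes among all deposited, and no member of one library had the barcode of a member of the other.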

How the data were processed

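Droplet-based 3′ single-cell RNA-seq (10x v3.1 chemistry, per the labels' protocols) was measured in 1 KO and 1 WT library. The authors deposited raw UMI counts per gene and barcode for 33696 genes, with no normalization. Per the submitters' processing notes Cell Ranger 6.0.1, Seurat 4.3.0 and mm39 were used, while the file headers name Cell Ranger 8.0.1. No annotation of mm39 was used here, so names come from the files, and the start regions and gene spans come from RefSeq GRCm38.p6 and GENCODE M21, matched by symbol or identifier.

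UMIs of members were summed per library with Python 3.11.15, numpy 2.4.6, scipy 1.17.1 and pandas 2.3.3, scaled to CPM over all member UMIs (947959 in KO and 1108482 in WT) and compared as log2 of CPM plus a pseudocount of 1. A gene was measured from 20 summed UMIs and counted as different past 2-fold. Shares carry exact Clopper-Pearson intervals, sums exact Poisson intervals and ratios exact conditional binomial intervals. These assume independent molecules, and UMIs of 1 cell are not. In simulated Poisson sums of 8744 genes the ratio intervals held the true value in 96.3%. B cells (Cd79a-positive, without the T and NK genes of the rule) served for free RNA in shares of cells, with 971 KO and 561 WT cells of at least 1000 UMIs. Doublets were not removed from the members, and Scrublet in scanpy 1.11.5 marked 26 KO (4.92%) and 44 WT (13.9%) of them.

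Named genes were the 12 highest and 12 lowest ratios among genes with at least 50 UMIs, 50 CPM and a UMI in 5% of members of the higher library and an interval that left out 1, without mitochondrial, ribosomal, haemoglobin, receptor-segment, predicted, sex and rule genes and markers of other types. Members of the lists and markers could also be named. Some genes of the lists and of the named set are counted but not reported here. The members and lists were chosen with earlier results of these data known. The split by Gzma, the comparison within WT members and the Dscam counts were chosen after the values were seen. Alternatives were thinning, TMM (edgeR 4.0.16) and DESeq2 1.42.0 scaling, other count minimums, pseudocounts, haemoglobin and T-gene limits, doublet removal and free-RNA subtraction.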

Additional observations from a re-analysis of the deposited data

How the results depend on the processing

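No paired analysis was possible because each group had 1 library, and none could be left out in turn. The log2 ratio of the shares of kept cells was 1.36, and 1.15 with cells thinned, 1.61 with at least 2 UMIs of each gene group, 1.87 with more T genes barred, 2.05 without ILC1-gene carriers, 1.57 without neutrophil-rich members and −1.04 with haemoglobin at most 1%, which kept 10 KO members. Genes at least 2-fold lower numbered 541, and 330 with cells thinned, 1484 with haemoglobin at most 1%, 850 without a haemoglobin limit, 341 with more T genes barred, 1595 and 127 with a minimum of 1 and 100 UMIs, and 271 with a pseudocount of 10. Genes at least 2-fold higher numbered 389, and 625 with haemoglobin at most 1%, 2164 and 103 with those minimums, 152 with a pseudocount of 10 and 1292 after free-RNA subtraction. Genes higher in KO were 41.8% of those past 2-fold, 52.8% with cells thinned, 24.4% without a haemoglobin limit, 56.8% with more T genes barred and 67.0% after free-RNA subtraction. Early-maturation medians were −1.76 with cells thinned, −1.82 at 100 UMIs and −1.95 after free-RNA subtraction. Late-maturation medians were −0.70 with haemoglobin at most 1%, 0.39 without ILC1-gene carriers and 0.040 in Gzma-positive members. With haemoglobin at most 1% the cytotoxic median was −1.63, the cell-cycle median 0.27, Adamts6 −0.054 and Tspan32 −1.11, and the KO minus WT difference in cells with a UMI was −16.3 percentage points for Prf1, −7.91 for Il18r1 and 3.09 for Mki67 or Top2a. In Gzma-positive members it was −2.35 for Prf1. With more T genes barred the cytotoxic median was 0.20, against −0.16 under the rule as given. The KO minus WT difference in cells with an Xcl1 UMI was then −10.1 percentage points, against −22.3 under the rule as given. The interferon-gamma median was 0 after the free-RNA subtraction, which took more S100a8 and S100a9 than the members held, and −1.26 with an estimate from the middle of the B cells. For these changes the cause was not tested. The MHC class I median stayed between −0.79 and −0.56 in all 19 alternatives. Depth limits the single genes of few UMIs.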

Other observations

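Signalling and metabolic genes outside the groups above gave these values in KO and WT members. Among immediate early genes, Jun, a subunit of the AP-1 factor, had 13 UMIs in KO members and 45 UMIs in WT members, Nr4a3, an orphan nuclear receptor induced by receptor signalling, had 8 UMIs in KO and 28 UMIs in WT, and Nfkbia, the NF-kappa-B inhibitor and target, stood at 116 CPM in KO members and 245 CPM in WT members. Among glycolysis genes Pkm, which encodes pyruvate kinase, stood at 118 CPM in KO members and 238 CPM in WT members and Pfkl, the liver-type phosphofructokinase, at 33.8 CPM in KO and 10.8 CPM in WT, so members of the one pathway differed in direction. Oasl2 and Rtp4 were the 2 type I interferon genes at least 2-fold lower in KO members, with 8 and 13 UMIs in KO members and 40 and 33 UMIs in WT members.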
